A study of Mus musculus with 7 samples.

Results

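The regions described here are the accessible DNA around 10 stress-induced early response genes, Egr1, Egr2, Klf6, Klf10, Cebpb, Dusp1, Zfp36, Ier2, Ier3 and Ier5, in mouse mammary tumor cells. They were chosen as the union regions, made by merging the rows of both deposited ATAC-seq peak lists where they overlap or touch, whose midpoint had a transcription start site (TSS) of one of these genes as the nearest protein-coding TSS. The rule gave 232 of 119215 union regions, and 10 of the 17388 genes that were nearest to any region. ATAC-seq marks open DNA by letting a transposase insert sequencing adapters there. The cells came from spontaneous mammary tumors of mice that carried both the MMTV-PyMT transgene, in which a mammary tumor virus promoter drives the polyoma middle T oncoprotein in the mammary epithelium, and a bacterial artificial chromosome that reports the Notch ligand gene Dll1 with mCherry. Tumors were digested with collagenase and hyaluronidase, CD45+, CD31+ and Ter119+ cells were sorted away, and the mCherry+ (Dll1+) and mCherry- (Dll1-) cells that remained were collected. Both groups thus shared the oncogene and the reporter, and differed in the reporter signal used for the sort. The study kept its tumor mice on a C57BL/6 background, and the labels give no treatment and no age. The 7 samples came from 4 tumors, with 3 samples of Dll1+ cells, 4 samples of Dll1- cells and 3 tumors that gave both. The deposited files are 1 pooled peak list for each group, so no value below has a replicate error, no test of the groups was possible, and every difference is one between 2 lists.

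Early response genes are switched on within minutes of a growth signal or a stress, from promoters that are kept open in advance and that are read by factors already present in the cell, among them the serum response factor (SRF) and the CREB proteins. Some of their products are transcription factors that pass the signal on, and others end it, by removing phosphate from MAP kinases or by destroying mRNA. The same genes are known to respond to enzymatic dissociation of tissue.

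The lists differed in depth. The Dll1+ list held 132872 rows and the Dll1- list 148923 rows, with a median of 43 and 61 reads at a summit. The most frequent local background, the number of reads the peak caller expected at a summit, was 3.74 reads for Dll1+ and 7.20 reads for Dll1- cells. Weak regions therefore had more reads behind them in the Dll1- list, and a region absent from the Dll1+ list was not called at that depth rather than shown to be closed. All 5 luminal epithelial marker genes (Krt8, Krt18, Epcam, Elf5 and Cdh1) had a promoter region in both lists, with percentiles of 55.7 to 92.9 in Dll1+ and 63.3 to 95.1 in Dll1- cells. Among the basal markers 1 of 4 had one in each list (Acta2), and Krt5, Krt14 and Trp63 had none in either. A promoter region was present for 0 of 4 immune markers in the Dll1+ list and 1 of 4 (Csf1r, at percentile 76.0) in the Dll1- list, for 1 of 3 endothelial markers (Kdr) in both lists, and for 1 (Pdgfra) and 2 (Pdgfra and Col1a2) of 4 fibroblast markers. The part of such cells in the differences below was not tested.

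To ask where the early response genes were open, the regions of each gene were first counted by the list that held them. Most were open in both populations. Of the 232 regions, 165 (71.1%, 95% interval 64.8 to 76.9%) were called in both lists, against 66.4% of all union regions. A further 17 (7.33%, 4.33 to 11.5%) were called only in Dll1+ cells, where 9.01% of all regions were, and 50 (21.6%, 16.4 to 27.4%) only in Dll1- cells, where 24.6% of all regions were. The shares of the early response genes in one list alone were thus close to those of the genome as a whole. These intervals are exact binomial (Clopper-Pearson), cover counting error only, and treat neighbouring regions as independent. Regions called only in Dll1- cells outnumbered those called only in Dll1+ cells at 8 of the 10 genes, and the numbers were equal at Zfp36 and Ier3. Over all union regions, 29318 were called only in Dll1- and 10744 only in Dll1+ cells. The share of all genes with such an excess was not counted, so it is not read as a trait of these genes.

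The genes differed widely in the size of their territory. Klf6, a zinc finger transcription factor, had 74 regions, 56 in both lists, 7 in Dll1+ only and 11 in Dll1- only, spread from -620709 to 335419 bp of its TSS (negative values are upstream). Only 14 genes in all, Klf6 included, had at least as many. Cebpb, a leucine zipper factor of inflammation and mammary development, had 45 regions (31 in both, 4 in Dll1+ only, 10 in Dll1- only). Ier5 had 27 (18, 3 and 6 in the same order), and Klf10, a factor induced by TGF-beta, had 24 (17, 0 and 7). Egr2, a zinc finger factor, had 15 regions, 9 in both lists, 0 in Dll1+ only and 6 in Dll1- only, all upstream of the gene. Dusp1, the phosphatase that inactivates MAP kinases, was the member least shared, with 5 of 13 regions in both lists (38.5%, 13.9 to 68.4%), 2 in Dll1+ only and 6 in Dll1- only. The genes with fewest regions beside Dusp1 were Ier3 with 12 regions (10, 1 and 1), Ier2 with 11 (9, 0 and 2), Egr1 with 7 (6, 0 and 1) and Zfp36, whose product tristetraprolin destroys AU-rich mRNAs, with 4 regions, all in both lists. By annotation, 143 of the 232 midpoints were intergenic and 73 intronic.

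**Figure D1:**
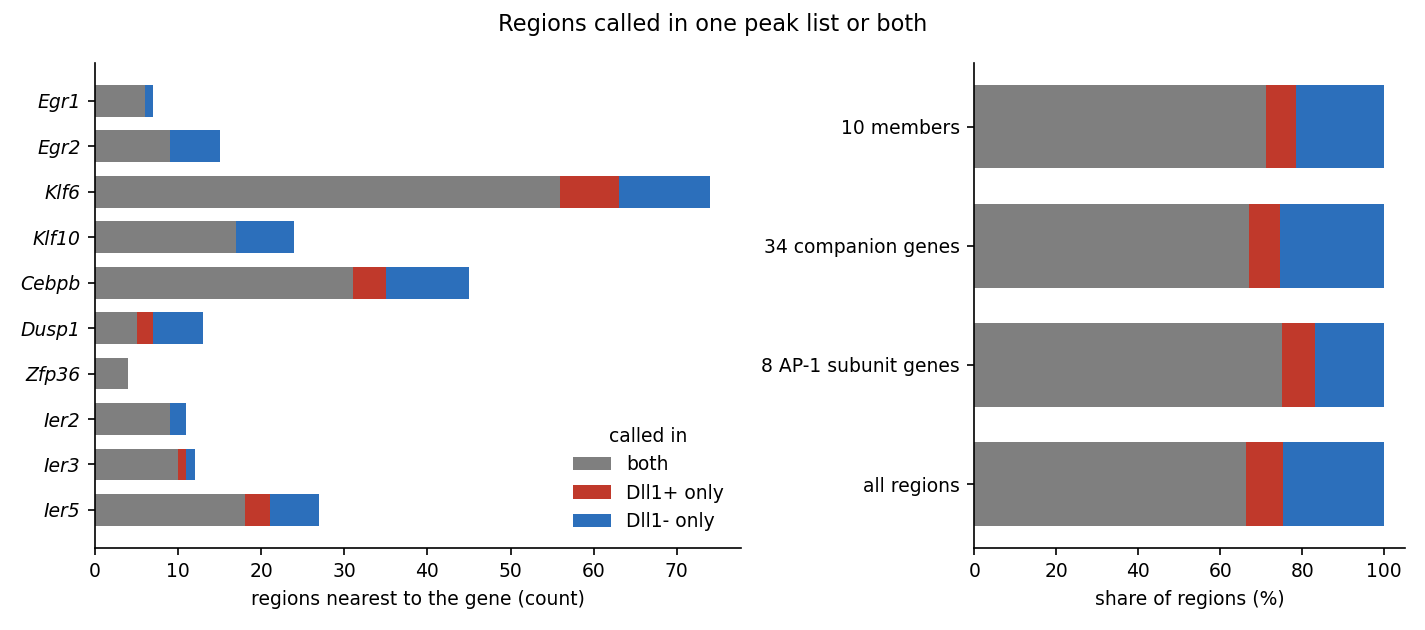
Left, number of union regions (horizontal axis, count) whose nearest protein-coding TSS was that of each early response gene, coloured by the list that called them. Right, the same classes as shares (%) for the 10 members, 34 companion early response genes, 8 AP-1 subunit genes and all 119215 regions. Regions in both lists were the largest class at each gene but Dusp1, and the shares of the members lay near those of all regions.

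**Figure D2:**
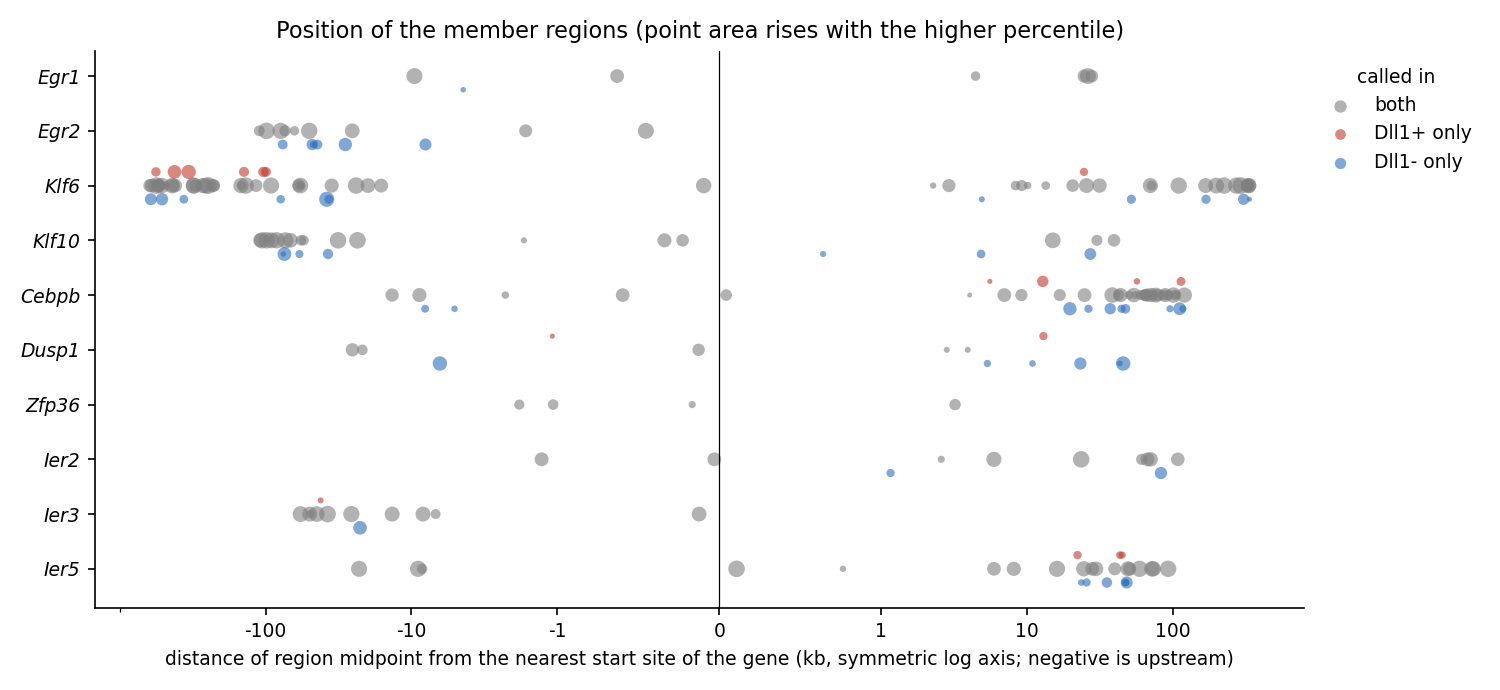
Each point is 1 region, placed by the distance of its midpoint from the nearest TSS of its gene (horizontal axis, kb, symmetric log scale) and coloured by the list that called it, with Dll1+ only points drawn above and Dll1- only points below the row. The point area rises with the higher of the percentiles of fold enrichment. Klf6 spans the widest territory with 74 regions and Zfp36 the narrowest with 4.

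Strength was compared by rank. The fold enrichment of the strongest summit of a region was turned into its percentile among all rows of its own list (100 is the strongest row), and the difference, Dll1+ minus Dll1-, is called the rank shift. A second measure, the scaled read ratio, divides the reads recovered at the summit in Dll1+ by those in Dll1- cells and by the median of that ratio (0.614) over all 79153 shared regions, so that a value of 1 is the typical region. The rank rests on reads over local background and the ratio on reads alone.

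All 10 genes had a promoter region, one that overlapped the stretch from 1000 bp before to 100 bp after a TSS, in both lists. There were 15 such regions (6.47% of the member regions, where 12.7% of all regions lay in promoters), 13 of them in both lists (86.7%, against 90.1% of all promoter regions). One Dusp1 region, at -1080 bp, was called in Dll1+ only (91 reads, fold 2.02, percentile 1.73) and one Klf10 region, at 641 bp, in Dll1- only (186 reads, 2.26, 5.93), both near the bottom of their list. The median percentile of the 13 was 52.3 in Dll1+ and 64.5 in Dll1- cells, where all shared promoter regions had medians of 83.6 and 86.8. The Ier5 promoter was the strongest, with a fold enrichment of 15.2 (percentile 92.8) in Dll1+ and 18.2 (97.0) in Dll1- cells. The Egr2 promoter followed, with folds of 13.8 (90.2) and 12.1 (88.1). Both thus stood at percentile 88.1 or above in each list, and were the only ones above the promoter median in both. The Klf6 promoter had folds of 9.37 (76.1) and 10.3 (82.9), and the Ier3 promoter 8.45 (71.7) and 8.55 (76.2). Ier3 encodes a protein that protects cells from death. The stronger Klf10 promoter region had folds of 6.96 (62.0) and 7.03 (67.8), the stronger Cebpb region 6.86 (61.5) and 6.40 (63.4), the Ier2 promoter 5.82 (52.3) and 6.59 (64.9), and the Egr1 promoter 5.40 (47.9) and 6.56 (64.5). These stood near the middle of their list and below the median promoter. The weakest promoters, by the fold enrichment of their stronger region, were those of both genes that end the response. They were Dusp1, with folds of 3.74 (24.8) and 5.05 (50.9), and Zfp36, with 3.88 (27.5) and 3.92 (35.3) at its stronger region and 2.90 (11.6) and 2.48 (9.41) over the TSS. By reads the order differed, with 251 and 402 at the stronger Zfp36 region and 237 and 348 at the Ier3 promoter.

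Of the 13 shared promoter regions, 11 ranked lower in Dll1+ than in Dll1- cells and 2 higher (Egr2, by 2.15 points, and the Zfp36 TSS region, by 2.19 points). That was 84.6% ranked lower, against 69.9% of all shared promoter regions. The median rank shift was -6.76 points, against -1.83 over all 13648 shared promoter regions. A shift of 10 points or more toward Dll1- was seen at 4 of the 13, namely Dusp1 (-26.0), Egr1 (-16.5), the weaker Klf10 region (-12.8) and Ier2 (-12.5), where 14.7% of all shared promoter regions had one. A shift that large toward Dll1+ was seen at 0 of the 13, where 4.07% of all had one.

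The reads did not follow the ranks at the promoters. The median scaled read ratio of the 13 regions was 1.02, with a range of 0.878 to 1.28, against a median of 0.961 over all shared promoter regions. At the Dusp1 promoter 198 reads in Dll1+ and 360 in Dll1- cells gave a ratio of 0.896 (95% interval 0.750 to 1.07), and at the Egr1 promoter 393 and 563 reads gave 1.14 (0.997 to 1.30). The intervals, exact and for counting error only, lay above 1 at 2 regions, the Egr2 promoter (335 and 463 reads, 1.18, 1.02 to 1.36) and the Zfp36 TSS region (243 and 309 reads, 1.28, 1.08 to 1.52), and below 1 at none. The local background, that is, the reads expected around the summit, was high at these promoters. It was 5.11 to 22.3 times the genome-wide level in Dll1+ and 4.08 to 17.2 times in Dll1- cells at the 13 regions, with medians over the member promoter regions of 12.4 and 10.6, where the medians of all promoter regions were 2.94 and 2.55. At the Egr1 promoter it was 19.2 times in Dll1+ against 11.8 times in Dll1- cells, and at the Dusp1 promoter 14.0 against 9.79 times. The part of the background in the rank shifts was not tested.

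**Figure D3:**
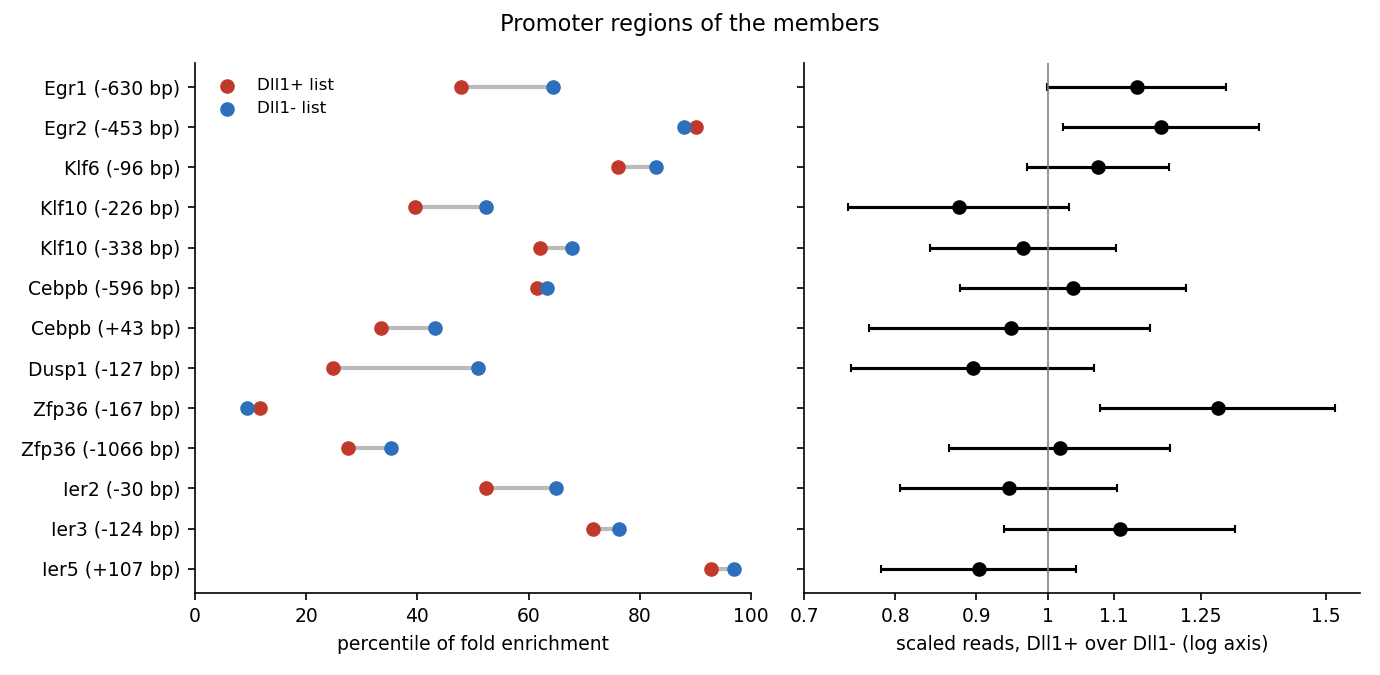
Left, percentile of fold enrichment (0 to 100) of the 13 promoter regions called in both lists, with a red point for Dll1+ and a blue point for Dll1-. The label gives the gene and the distance of the region midpoint from the TSS. Right, scaled read ratio, Dll1+ over Dll1- (log axis), with exact 95% intervals that cover counting error only. The red point lies to the left of the blue one at 11 of 13 regions (69.9% of all shared promoter regions ranked that way), while the ratios scatter around 1, from 0.878 to 1.28 (median of all shared promoter regions 0.961).

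The promoter sequences show which textbook early response elements these regions hold. RefSeq promoters (GRCm38.p6) were matched for 7 of the 10 genes; those of the others were not analysed here. A CArG box, the site of SRF, was found in the 250 bases before a TSS of Egr2 and of Zfp36, where 1.47% of the 32817 promoters had one. The shares given here count each promoter once, while a gene such as Egr2 can have several. A CRE, the CREB site TGACGTCA, was found in Dusp1, with 1.55% of all promoters. An NF-kB consensus was found in Ier3 (3.90% of all), and an EGR consensus, GCGTGGGCG or GCGGGGGCG, in Zfp36 (3.06% of all). The bases are given on the strand of the gene, upstream of its exons, with these motifs in capitals, to set each promoter beside its values above. They lie at chr10:67537619-67537868 (Egr2, + strand), chr17:26508520-26508722 (Dusp1, - strand) and chr17:35821463-35821683 (Ier3, + strand). The Zfp36 bases fall in an exon and are not shown.
Egr2: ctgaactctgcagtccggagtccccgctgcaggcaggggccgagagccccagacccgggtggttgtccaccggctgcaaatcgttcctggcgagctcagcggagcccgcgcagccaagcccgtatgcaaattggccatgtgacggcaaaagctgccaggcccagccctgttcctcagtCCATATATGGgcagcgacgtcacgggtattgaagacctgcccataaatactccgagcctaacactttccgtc
Dusp1: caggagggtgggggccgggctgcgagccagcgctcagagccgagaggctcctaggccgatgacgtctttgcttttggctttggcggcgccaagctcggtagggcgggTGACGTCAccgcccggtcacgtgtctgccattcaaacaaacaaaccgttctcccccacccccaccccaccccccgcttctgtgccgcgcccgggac
Ier3: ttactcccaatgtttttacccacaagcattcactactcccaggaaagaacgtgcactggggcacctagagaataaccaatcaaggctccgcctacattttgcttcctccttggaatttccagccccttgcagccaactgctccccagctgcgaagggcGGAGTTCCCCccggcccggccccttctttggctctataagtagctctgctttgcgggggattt

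The Egr2 window held the CArG box of the most strongly ranked promoter among those of the transcription factors. The scaled read ratio of that promoter, Dll1+ over Dll1-, was 1.18. The Dusp1 window held the CRE beside the promoter with the largest shift toward Dll1-. No CRE lay within 100 bp of the strongest summit of that promoter region, at -127 bp, while the Ier2 promoter region at -30 bp held one there. A match of letters does not show that a factor was bound.

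Over all 165 shared regions, the early response genes ranked lower in Dll1+ than in Dll1- cells by more than shared regions in general. The median percentile was 56.3 in Dll1+ and 64.2 in Dll1- cells, where the medians of all shared regions were 67.3 and 70.7. The median shift was -4.20 points (95% order-statistic interval -6.76 to -3.09) against -1.67 for all shared regions, and 115 of the 165 had a shift below 0 (69.7%, against 59.0%). A shift of 10 points or more toward Dll1- was present at 55 of 165 regions (33.3%), where 25.1% of all shared regions had one, and toward Dll1+ at 12 (7.27%), where 15.2% had one. The higher share toward Dll1- depended on the rank used. Ranked by p-value it was 42 of 165 (25.5%) against 26.8% of all, and by percentile among shared regions 38 (23.0%) against 21.8%. The lower share toward Dll1+ was present under both, at 7.88% against 14.2% and 10.3% against 22.1%. By reads the difference was smaller. The median scaled ratio was 0.960 (0.931 to 1.01), 16 regions had 1.5-fold or more scaled reads in Dll1- cells (9.70%, where 12.3% of all shared regions did), and 10 had that many in Dll1+ cells (6.06%, where 12.5% did). Without Klf6, which gave 56 of the 165 regions, the median shift was -4.16 points, and without promoter regions -4.10. It was -2.59 by percentile among shared regions (-0.09 over all shared regions) and -2.56 at regions with a local background under 2 times the genome-wide level (-1.16 over all).

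**Figure D4:**
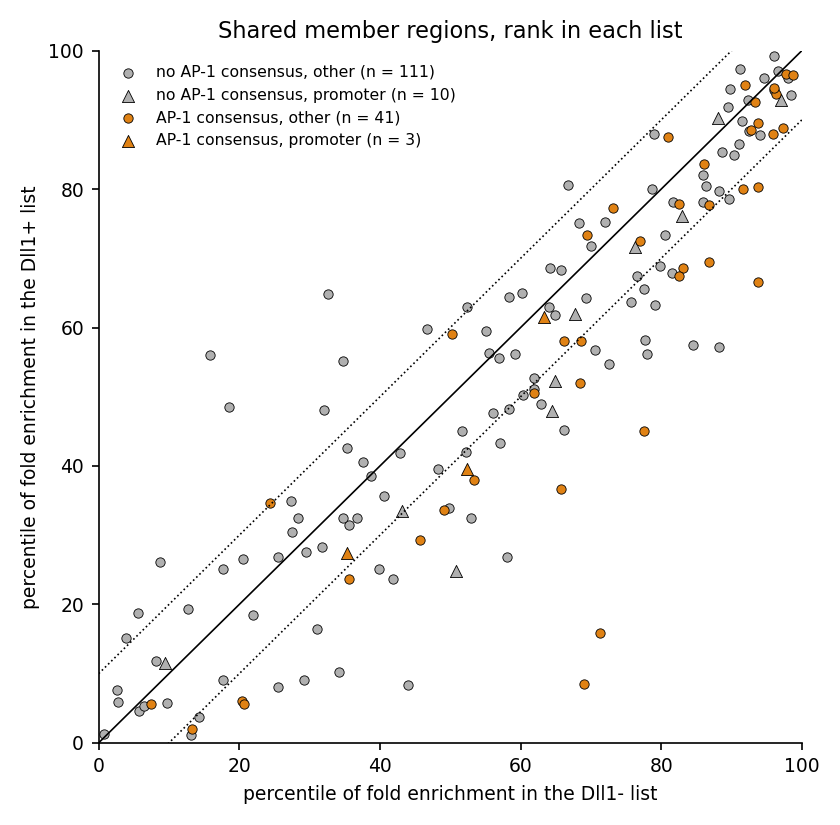
Percentile of fold enrichment of each of the 165 shared member regions in the Dll1- list (horizontal) and in the Dll1+ list (vertical). The solid line marks equal rank and the dotted lines a shift of 10 points. Orange points held an AP-1 consensus within 100 bp of the strongest summit and triangles are promoter regions. More points lie under the lower dotted line (55, or 33.3%) than above the upper one (12, or 7.27%), where all shared regions had 25.1% and 15.2%.

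All 10 genes had a median shift below 0, over as few as 4 regions, as did 68.8% of the 6945 genes with at least 4 shared regions. The medians of Egr2 (0.18, by percentile among shared regions) and Ier5 (0.39, by the median row of each region) were above 0 under one other ranking each. The order among the genes was not tested and moved with the ranking. By p-value the median was -3.41 for Klf6, -4.42 for Cebpb, -4.24 for Klf10, -3.95 for Egr2 and -6.90 for Dusp1. It was -5.46 for Egr1, -4.64 for Ier2, -3.90 for Zfp36, -1.04 for Ier3 and -1.29 for Ier5. The intervals of the medians treat neighbouring regions as independent. Among the transcription factors, Egr1 had a median shift of -10.6 points over 6 shared regions and Klf6 -6.67 over 56 (interval -10.4 to -2.44). The medians of Cebpb (-3.56 over 31 regions), Klf10 (-2.18 over 17, interval -12.8 to -1.07) and Egr2 (-0.71 over 9) lay closer to 0 by fold enrichment. The intervals of Egr1 (-16.5 to 6.12), Cebpb (-8.79 to 0.518) and Egr2 (-8.46 to 3.02) included 0. Of the Klf6 regions 22 of 56 ranked 10 points or more higher in Dll1- and 4 in Dll1+ cells, and Klf6 alone thus gave 22 of the 55 such regions of all members. Dusp1 had a median of -1.21 over 5 regions (range -26.0 to 10.3) and Zfp36 one of -11.2 over 4 (range -18.1 to 2.19). In the Ier group, the median was -11.0 for Ier2 over 9 regions, -4.35 for Ier3 over 10 and -2.61 for Ier5 over 18. Their intervals included 0 (Ier2 -20.9 to 1.73, Ier3 -19.5 to 9.09, Ier5 -15.9 to 4.99). Ier2 and Ier5 encode nuclear proteins, the latter of them tied to the heat shock response.

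The strongest region of a gene was often far from its promoter, and it was the same region in both lists at 4 genes. For Ier2 it lay at 23504 bp, in a coding exon of the neighbouring calcium channel gene Cacna1a, with folds of 18.5 (percentile 97.0) and 17.6 (96.6). For Ier3 it lay at -37600 bp, with folds of 17.6 (96.1) and 19.7 (98.1), and for Cebpb at 38400 bp, with 10.9 (82.1) and 11.3 (85.9). For Egr1 it lay at 26184 bp, with 11.8 (85.0) and 13.2 (90.4). The Ier2 and Ier3 regions thus stood at percentile 96.1 or above in both lists. At Klf6 the strongest region was at 292427 bp in Dll1+ (fold 22.3, percentile 99.2) and at -559011 bp in Dll1- cells (fold 21.0, percentile 98.8). Both regions were open in both lists, with percentiles of 96.1 and 96.5 in the other one. At Klf10 the regions at -31856 bp (fold 18.9 in Dll1+) and -23441 bp (fold 19.1 in Dll1-) led in one list each, with percentiles from 91.2 to 97.7. At Egr2 the leading region was at -50202 bp in Dll1+ (fold 16.6) and at -98533 bp in Dll1- cells (fold 18.4). The scaled read ratio of the latter, Dll1+ over Dll1-, was 0.593 (83 and 228 reads, interval 0.456 to 0.766). At Ier5 the promoter led in Dll1- cells, and a region at 92859 bp (fold 17.6, percentile 96.1) led in Dll1+ cells. The leading regions of Dusp1 and Zfp36 had lower folds. The strongest of Dusp1 had folds of 5.63 (percentile 50.3, at -25399 bp) in Dll1+ and 7.82 (72.6, at 45634 bp) in Dll1- cells, and that of Zfp36 folds of 3.88 (27.5, at -1066 bp) and 4.38 (41.8, at 3210 bp). By reads the Zfp36 region at 3210 bp was among the deeper ones, with 357 reads in Dll1+ and 623 in Dll1- cells, where the medians of the member regions were 76.5 and 119, and its local background was 26.0 and 19.7 times the genome-wide level.

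The largest shifts were at distal regions. Toward Dll1-, a region 8115 bp downstream of the Ier5 TSS was at percentile 8.43 in Dll1+ and 69.1 in Dll1- cells, with 36 and 153 reads (scaled ratio 0.383, interval 0.259 to 0.554). A region 31401 bp downstream of the Klf6 TSS, in an intron of the non-coding gene Gm47507, was at 15.9 and 71.3, with 14 and 70 reads (0.326, 0.170 to 0.584). The third, at -542273 bp of Klf6, was at 8.38 and 44.0, with 15 and 36 reads, and its interval (0.345 to 1.27) included 1. Toward Dll1+, a region 39958 bp downstream of the Ier5 TSS was at 56.1 in Dll1+ and 15.9 in Dll1- cells, with 40 and 29 reads (2.25, 1.36 to 3.76). A region at -603254 bp of Klf6 was at 64.8 and 32.6, with 39 and 30 reads (2.12, 1.28 to 3.53), and one at 64110 bp of Cebpb at 48.5 and 18.6, with 55 and 53 reads (1.69, 1.14 to 2.51). Ier5 and Klf6 thus held large shifts in both directions. These regions were picked as extremes, so their intervals are a description only.

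Regions called in one list alone were weak. The median percentile was 18.7 for the 17 in Dll1+ only and 23.2 for the 50 in Dll1- only, where the medians over all such regions were 29.4 and 32.6. The strongest in Dll1- cells lay at -38071 bp of Klf6, between genes, with 112 reads, a fold of 9.52 and a percentile of 80.3. Next came a pair of Dusp1 regions, at 45634 bp (75 reads, fold 7.82, percentile 72.6) and at -6379 bp in an intron of a Dusp1 transcript (84 reads, 7.76, 72.1). A Klf10 region at -74268 bp had 153 reads (6.64, 65.1) and an Ier3 region at -22499 bp had 62 reads (6.40, 63.3). The strongest in Dll1+ cells lay at -336965 bp of Klf6, in an intron of the non-coding gene Gm40660, with 47 reads, a fold of 8.05 and a percentile of 69.4, and was followed by one at -421557 bp of Klf6 (33 reads, 7.18, 63.7). The other 3 had percentiles of 30.7 to 41.9, at 12823 bp of Cebpb and at -103656 and -140623 bp of Klf6. These calls were also compared at the depth of the other list, and the part of depth in them was not tested. The reads of each region were scaled by the typical read ratio, and its background by the ratio of the backgrounds. Then 12 of the 50 regions in Dll1- only would have had a -log10 p-value above the median row of the Dll1+ list. The same held for 3 of the 17 in Dll1+ only against the median row of the Dll1- list. Over all regions of these classes the shares were 10.2% and 10.4%, lower than those of the members.

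Sequence was then examined at these regions. The AP-1 consensus, TGACTCA or its complement TGAGTCA, is the site of the Fos and Jun proteins, which are themselves early response products. The bases around the summit, on the + strand of GRCm38.p6 with motif matches in capitals, are shown for regions that ranked higher in Dll1- cells (Ier5 at 8115 bp and Klf6 at 31401 bp), that were called only there (Dusp1 at -6379 bp and Klf6 at -38071 bp), that ranked higher in Dll1+ cells (Ier5 at 39958 bp) and that were called only there (Klf6 at -336965 bp). They span chr1:155091419-155091619, chr13:5892793-5892993, chr17:26514786-26514986, chr13:5823301-5823501, chr1:155059608-155059808 and chr13:5524727-5524927 in that order.
Ier5 at 8115 bp: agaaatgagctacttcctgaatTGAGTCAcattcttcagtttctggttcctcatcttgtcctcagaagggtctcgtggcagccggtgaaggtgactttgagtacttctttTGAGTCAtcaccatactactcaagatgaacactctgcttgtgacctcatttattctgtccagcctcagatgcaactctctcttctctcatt
Klf6 at 31401 bp: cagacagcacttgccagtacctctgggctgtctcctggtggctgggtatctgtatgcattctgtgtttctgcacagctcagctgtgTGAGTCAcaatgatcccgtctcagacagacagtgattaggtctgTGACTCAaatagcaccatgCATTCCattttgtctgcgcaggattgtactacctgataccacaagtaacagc
Dusp1 at -6379 bp: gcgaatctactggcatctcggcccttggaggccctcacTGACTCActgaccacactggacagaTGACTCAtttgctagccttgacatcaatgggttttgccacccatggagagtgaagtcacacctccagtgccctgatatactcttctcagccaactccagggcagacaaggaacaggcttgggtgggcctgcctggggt
Klf6 at -38071 bp: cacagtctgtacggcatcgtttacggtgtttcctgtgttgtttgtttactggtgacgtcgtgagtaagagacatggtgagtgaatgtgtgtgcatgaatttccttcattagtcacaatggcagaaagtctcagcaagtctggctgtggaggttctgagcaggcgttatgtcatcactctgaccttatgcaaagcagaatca
Ier5 at 39958 bp: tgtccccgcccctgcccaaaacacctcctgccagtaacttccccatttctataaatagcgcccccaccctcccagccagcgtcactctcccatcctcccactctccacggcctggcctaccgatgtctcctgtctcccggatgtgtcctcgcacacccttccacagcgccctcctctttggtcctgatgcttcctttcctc
Klf6 at -336965 bp: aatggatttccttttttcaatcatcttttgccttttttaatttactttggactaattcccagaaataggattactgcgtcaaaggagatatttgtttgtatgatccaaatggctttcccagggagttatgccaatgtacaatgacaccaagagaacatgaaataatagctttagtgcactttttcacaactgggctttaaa

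The first of these held a pair of AP-1 sites, the next a pair together with a TEAD consensus (GGAATG, shown as its complement CATTCC), and Dusp1 at -6379 bp a pair as well. The strongest region in Dll1- only, Klf6 at -38071 bp, and both regions from the Dll1+ side held none of the motifs searched. Over all regions named above as strongest in one list or as largest shifts, 4 of 8 on the Dll1- side and 0 of 8 on the Dll1+ side held AP-1. Those without it on the Dll1- side included Klf6 at -542273 bp, Klf10 at -74268 bp and Ier3 at -22499 bp. Over all regions, AP-1 lay in 30.4% of those in Dll1- only and in 27.7% of shared ones ranked 10 points or more higher in Dll1-. The matching shares for Dll1+ were 4.40% and 4.85%. The named regions were picked as extremes, so their counts are a description only.

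An AP-1 consensus lay within 100 bp of the strongest summit at 59 of the 232 regions (25.4%, 20.0 to 31.5%), against 18.1% of all regions, and at 9 of the 10 genes, Egr1 being the exception. Among the 165 shared regions the share was 26.7% (20.1 to 34.1%), against 15.4% of all shared regions, and outside promoters 27.0% (20.1 to 34.8%) against 17.6%. In the shared regions it differed with the direction of the rank shift. Of the 55 shared regions that ranked 10 points or more higher in Dll1- cells, 21 (38.2%, 25.4 to 52.3%) held the consensus. Of the 98 within 10 points, 22 did (22.4%, 14.6 to 32.0%), and of the 12 that ranked higher in Dll1+ cells, 1 did (8.33%, 0.211 to 38.5%). Over all shared regions these shares were 27.7%, 12.9% and 4.85%, so the order was the same in the genome as a whole. The 44 shared member regions with the consensus had a median shift of -8.83 points and a median scaled ratio of 0.852, with 38 of 44 (86.4%) below 0 in shift. The 121 without it had medians of -3.57 points and 1.01, with 77 of 121 (63.6%) below 0. Among all shared regions the medians were -7.97 points with the consensus and -0.90 without. In the single-list classes it was present in 14 of 50 regions of Dll1- cells (28.0%, 16.2 to 42.5%, against 30.4% of all such regions), a share close to that of the shared member regions, at 7 of the 10 genes, and in 1 of 17 regions of Dll1+ cells (5.88%, 0.149 to 28.7%, against 4.40%), at 43355 bp of Ier5.

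The other motifs were rarer. TEAD was present in 38 of 232 regions (16.4%, against 14.8% of all regions), NF-kB in 11 (4.74%, 2.39 to 8.33%, against 3.02%, but 1.29% against 1.58% within 50 bp of the summit), the CArG box in 6 (2.59%, 0.955 to 5.54%, against 1.01%) and CRE in 3 (1.29%, against 0.875%). The EGR consensus and the heat shock element (GAA, 2 bases, TTC, 2 bases, GAA) were each present in 2 regions (0.862%, against 0.893% and 0.362%). The C/EBP consensus TTGCGCAA was in 0 of 232 regions (interval up to 1.58%, against 0.135%). Within promoters the CArG box was in 2 of 15 member regions, at Egr2 and Zfp36, against 0.838% of all promoter regions. Matches were sought on both strands, and none of the motifs was tested for enrichment.

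**Figure D5:**
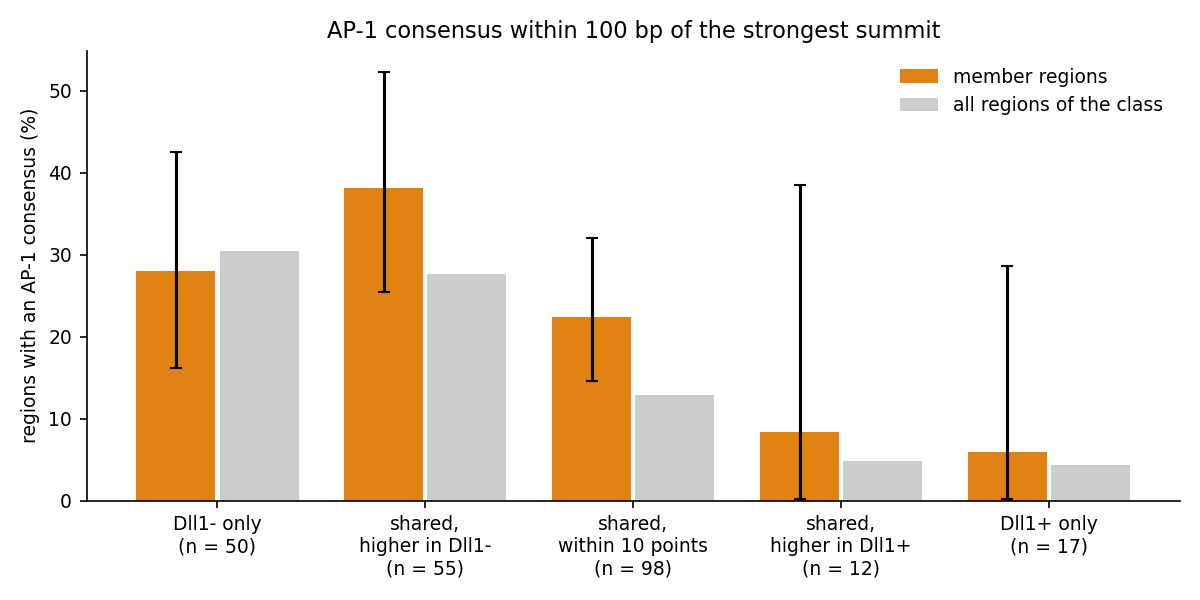
Share of regions (%) with an AP-1 consensus within 100 bp of the strongest summit, in orange for the member regions with exact 95% intervals for counting error, and in grey for all regions of the same class. Shared regions are split by a rank shift of 10 points. The member share is 38.2% where the rank was higher in Dll1- and 8.33% where it was higher in Dll1+ cells.

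The early response loci also stood in broadly accessible surroundings. The median local background of the member regions was 2.73 times the genome-wide level in Dll1+ and 2.48 times in Dll1- cells, against 1.43 and 1.24 over all regions. It was highest at Zfp36 (12.8 to 26.0 times over its 4 regions in Dll1+ cells). The shared member regions were grouped by this background, as the mean of both lists on a log scale. A level of 8 times or more was found at 30 of the 165 (18.2%) and at 1.20% of all shared regions. In that group the median shift was -7.30 points for the members and -4.16 for all, with median ratios of 1.04 and 1.04. In the group under 2 times it was -2.56 for the 66 members and -1.16 for all, with ratios of 0.929 and 0.998. Between 2 and 4 times the medians were -4.05 and -1.78 points, and between 4 and 8 times -5.93 and -2.87. The shift was larger where the background was higher, in the members and in all shared regions, and the median of the members lay lower in each group. Shifts of 10 points or more toward Dll1+ were present at 10.6% of the members against 19.8% of all under 2 times, at 9.76% against 7.63% between 2 and 4 times, at 3.57% against 4.54% between 4 and 8 times, and at 0 of 30 against 1.89% above that.

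To see whether other genes of the same response showed the same values, 34 companion genes were examined, among them the Nr4a, Gadd45, Btg and further Dusp, Egr and Klf genes. All 34 had a promoter region in both lists. Of their 777 regions, 67.1% were in both lists, 7.46% in Dll1+ only and 25.5% in Dll1- only, against 66.4%, 9.01% and 24.6% of all union regions. More were in Dll1- only than in Dll1+ only at 31 genes, with equal numbers at 3. The share of all genes with such an excess was not counted. The median shift of their 521 shared regions was -2.96 points (interval -4.21 to -1.98), between that of the members and that of all shared regions. Of the 34 genes, 30 had a median below 0, as did 68.8% of all genes with at least 4 shared regions. Some companion genes had fewer shared regions than that. A shift of 10 points or more toward Dll1- was present at 145 (27.8%) and toward Dll1+ at 65 (12.5%). The largest excess in Dll1- only was shared by Klf5 (6 regions in Dll1+ only, 18 in Dll1- only), Zfp36l1 (4 and 16) and Zfp36l2 (5 and 17), and both Zfp36l genes encode relatives of tristetraprolin. The smallest was at Cebpd, Dusp2 and Nr4a1, with equal numbers. The 8 AP-1 subunit genes had 124 regions, with a median shift of -5.49 points (-7.64 to -3.06) over 93 shared ones, of which 33 (35.5%) ranked 10 points or more higher in Dll1- and 3 (3.23%) in Dll1+ cells, against 25.1% and 15.2% of all shared regions.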

How the data were processed

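ATAC-seq peak lists of Dll1+ (3 samples) and Dll1- (4 samples) PyMT tumor cells were analysed. The authors ran the replicates of each population together through the ENCODE ATAC-seq pipeline and deposited 1 optimal peak list for each (genome builds mm10 and GRCm38 in the submitters' processing notes). The peak caller and its thresholds are not given in the sources used here. The deposited values are the fold enrichment of a summit over local background, a ratio, its -log10 p-value, and the summit offset in bp. No library totals come with the lists. Reads and background at each summit were recovered here from the fold and the p-value under a Poisson model, which could be solved for 100% of Dll1+ rows and all but 1 Dll1- row, and which was tested on simulated data. Since background enters the fold, ranks and reads can differ. Regions were assigned with GENCODE M21 start sites. Intervals are exact, at 95%, for shares and read ratios, and from order statistics for medians of 6 or more regions. Python 3.11.15, numpy 2.4.6, pandas 2.3.3 and scipy 1.17.1 were used. Lists were pooled, so no test between populations was made. Named were all promoter regions, the strongest region of each gene, the 5 strongest regions of each single list, the 3 largest rank shifts each way, and the companion genes with the 3 highest and 3 lowest differences in single-list regions. The genes, gene lists and motifs were chosen with earlier results of these data known. The alternatives tried covered the rows used, the definition of a shared region, the assignment to genes, the rank, the scaling, the motif window and the promoter width. The result of 1 further marker list is not reported here.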

Additional observations from a re-analysis of the deposited data

How the results depend on the processing

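No paired analysis was possible because each population was deposited as 1 pooled list, and for the same reason no sample could be left out. With only rows above the median fold of their list, 90 member regions were in both lists, 7 in Dll1+ only and 25 in Dll1- only. When a single-list region had to hold such a row, the single-list classes held 2 (Dll1+) and 9 (Dll1-) regions. Within 50 kb of the TSS, 80 regions (65.0%, against 68.5% of all) were in both lists, 9 (7.32% against 7.87%) in Dll1+ only and 34 (27.6% against 23.6%) in Dll1- only, and 3 and 28 shared regions ranked 10 points or more higher in Dll1+ and Dll1- cells (3.75% and 35.0%, against 13.1% and 25.2% of all shared regions within 50 kb). Each of these settings keeps fewer rows or regions by construction. The shares over all regions were not counted with the stronger rows or the stricter single-list rule, so those counts describe the members only. The difference in single-list regions, Dll1+ minus Dll1-, turned to 1 at Ier5 with the stronger rows and to 1 at Klf6 with the stricter single-list rule. The median rank shift was -2.59 points when percentiles were taken among shared regions, where that of all shared regions was -0.09, and -2.56 at regions with a local background under 2 times the genome-wide level, a setting chosen after seeing the data. Scaled by the backgrounds of the lists, the median read ratio was 1.13 (1.18 over all shared regions). Of the shared member regions, 22 were then 1.5-fold or more higher in Dll1+ and 10 in Dll1- cells. The matching shares over all shared regions were not counted. This scaling moves every region alike, and the members stood at 0.960 of the median of all shared regions under both. Within 50 bp of the summit, EGR was in 1 region (0.431%, against 0.489% of all), NF-kB in 3 (1.29% against 1.58%), the heat shock element in 0 (against 0.133%), TEAD in 24 (10.3% against 8.43%) and AP-1 in 47 (20.3% against 13.6%). The median rank shifts of Egr2 and Ier5 were above 0 in 1 of 5 settings each (0.18 and 0.39), and those of the other 8 genes were below 0 in all 5. With equal numbers of rows in the lists, 162 member regions were in both, 20 in Dll1+ only and 47 in Dll1- only, and the shares over all regions were not counted. The part of depth in these calls was not tested further. Where no cause is given, the cause was not tested.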
